A study of Gallus gallus with 12 samples.

Results

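Long non-coding RNAs (lncRNAs) were examined gene by gene. Those taken were more abundant in the dissected Müllerian duct of the chicken embryo than in earlier urogenital tissue with or without the nascent duct. They were selected on mean CPM, the counts of a gene per 1000000 counts of its library. Of the 5147 genes annotated as lncRNA, among 24121 genes in all, 85 met the rule: the lower of the E5.5 and E6.5 duct means was at least 0.5 CPM and at least 2 times the higher of both E4.5 means. Because these values chose the lncRNAs, their rise from E4.5 tissue to duct is described below with no test. Tests were kept for what the rule did not use, which was the difference between both ducts, the difference between both E4.5 tissues, and the protein coding genes lying next to the lncRNAs.

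The Müllerian duct is the embryonic precursor of the oviduct. It begins as a thickening and infolding of the coelomic epithelium over the anterior mesonephros, the embryonic kidney, and then grows backwards along the mesonephros as an epithelial tube wrapped in mesenchyme. LncRNAs are transcripts with no long open reading frame. Some act on chromatin or on the transcription of nearby genes, many start from the same promoter region as a protein coding gene but run the other way, and for most, in chicken as elsewhere, no function is known. All 85 lncRNAs carried locus numbers in place of names, so each is placed here by its position in the GRCg6a genome and by its neighbours.

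The RNA came from pooled tissue of Hy-Line Brown embryos of both sexes, with no genetic or drug treatment, in 4 tissues of 3 libraries each, each library a pool of its own. E4.5-Ant (embryonic day 4.5) was the front part of the urogenital system, which held mesonephros, mesentery and the nascent duct region, and E4.5-Post was the part behind it, mesonephros and mesentery with no duct, which served as control tissue and came from the same embryos. E5.5 duct and E6.5 duct were whole ducts freed from the kidney, surface epithelium and mesenchyme included. Of the 3 samples titled E5.5 duct, 1 had a cell type entry naming posterior kidney and was taken as duct from its title and tissue entry. In E4.5-Ant library 2, 42.12% of counts lay on rRNA genes, against 0.1992% to 1.949% in the other 11. The study left that library out, and so did the rule, the means and the tests here, so E4.5-Ant rests on 2 libraries. Libraries held 24235353 to 31373783 counts on genes.

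The labelled tissues were checked against markers. All 8 Müllerian markers looked at were detected in every tissue, but their summed level did not part duct from kidney, with 721 to 794 CPM in E4.5-Ant, 1050 to 1120 in E4.5-Post, 1030 to 1100 in the E5.5 duct and 1200 to 1250 in the E6.5 duct. LHX1 and PAX2 are also kidney genes, and both had their highest mean in E4.5-Post. EMX2, AMHR2 and DMRT1 were among those with higher means in both ducts than in either E4.5 tissue. Of the 8, 5 were called higher in the ducts than in E4.5 tissue and 0 lower. Markers of the mesonephric nephron summed to 2300 to 3000 CPM in E4.5 tissue, 1350 to 1610 in the E5.5 duct and 833 to 1150 in the E6.5 duct. Red blood cell genes summed to 1860 to 2390 CPM in E4.5 tissue and 520 to 984 in the ducts, where 4 of 6 were lower and 2 higher. Against the mean of both E4.5 tissues, 4 of 5 sclerotome genes were lower in the ducts and 0 higher. Sclerotome genes summed to 340 to 442 CPM in E4.5-Ant but 191 to 232 in E4.5-Post. Their sums were 252 to 339 CPM in the E5.5 duct and 368 to 383 in the E6.5 duct, above E4.5-Post. These markers therefore moved across the same tissues in which the lncRNAs were higher, and their part in the levels was not tested. In such bulk tissue, a gene expressed in more cells cannot be told apart from one with more RNA per cell. Age and tissue cannot be told apart either, because both ducts were older than the E4.5 tissues and no kidney of duct age was sampled.

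The 85 lncRNAs were a small fraction of the RNA. Their summed level was 108 and 124 CPM in the E4.5-Ant libraries, from 84.2 to 104 in E4.5-Post, from 331 to 485 in the E5.5 duct and from 495 to 541 in the E6.5 duct. Of the 1496 lncRNAs at or above the duct minimum, 5.68% met the rule, and of the 13600 protein coding genes at that minimum, 234 (1.72%) did. The mirrored rule, with E4.5 tissue above both ducts, was met by 23 of 1363 lncRNAs (1.69%). Among protein coding genes, 137 met the mirrored rule, so these too met the duct rule more often. The ratio of the lower duct mean to the higher E4.5 mean ran from 2.02 to 11.2 with a median of 2.72, reached 3 in 37 lncRNAs and 5 in 10. The lower duct mean ran from 0.531 to 40.8 CPM with a median of 1.72, so most were rare transcripts. In all, 59 reached 1 CPM in both ducts and 9 reached 10 CPM.

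**Figure D1:**
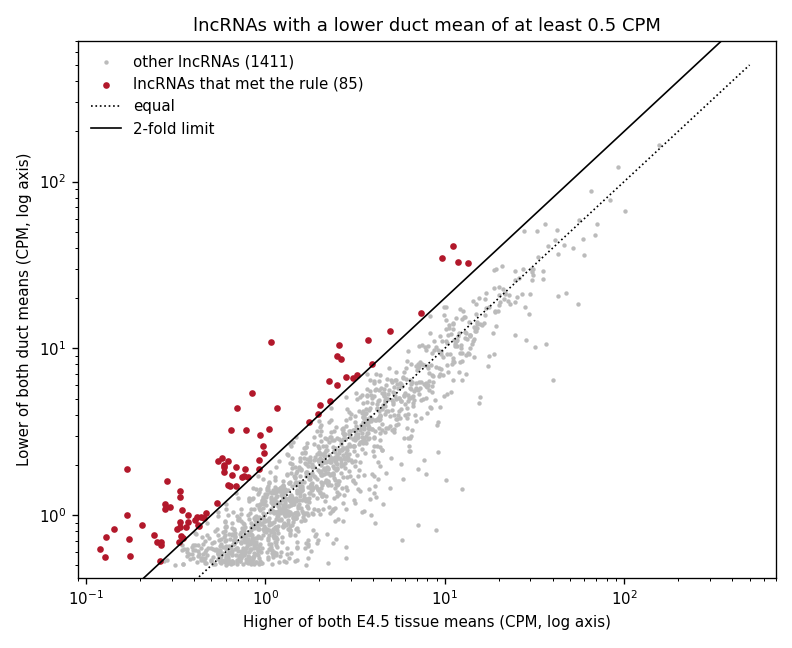
Lower duct mean against the higher E4.5 mean, both in CPM on log axes, for the 1496 lncRNAs with a lower duct mean of at least 0.5 CPM. The 85 that met the rule (red) lie at or above the 2-fold line, while the other 1411 (grey) lie below it and mostly near the line of equal values.

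Just inside the 2-fold limit lay LOC112531493, with a ratio of 2.023, LOC112530313, with 2.042, and LOC112532122, with 2.043. Just outside were LOC107055414 (1.987), LOC107052414 (1.979) and LOC101749252 (1.948). At the abundance limit, LOC112530313 (0.5307 CPM), LOC112531866 (0.5573 CPM) and LOC107052738 (0.5706 CPM) were the lowest taken, and LOC107053115 (0.4891 CPM), LOC112532793 (0.4519 CPM) and LOC107053926 (0.4021 CPM) the highest left out. Neither limit lay in a gap between genes.

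The most counts fell on a locus of chromosome 5 next to KATNBL1, which held 3 of the lncRNAs. LOC107053493 spans 30050135 to 30206237 on the minus strand and had 9.54 and 12.7 CPM in E4.5-Ant, 10.5, 7.1 and 7.3 in E4.5-Post, 39.3, 42.6 and 73.0 in the E5.5 duct and 51.3, 36.3 and 34.9 in the E6.5 duct. LOC107053494 lies inside it on the plus strand (30051612 to 30078214) and had 9.93 and 9.37 CPM in E4.5-Ant, 6.71 to 7.66 in E4.5-Post, 30.8, 34.9 and 38.9 in the E5.5 duct and 35.8, 38 and 35.6 in the E6.5 duct. On both strands, no E4.5 library reached the level of any duct library, and the ducts overlapped. LOC107053495, just beyond on the plus strand, had fewer counts, with 0.313 to 0.835 CPM across E4.5 libraries and 1.42 to 2.77 across duct libraries. KATNBL1, their nearest protein coding gene, showed no such step, with means of 43.1 CPM ± 0.956 (SD, n = 2) in E4.5-Ant, 41.9 ± 2.86 (n = 3) in E4.5-Post, 46.1 ± 2.52 (n = 3) in the E5.5 duct and 46.0 ± 0.784 (n = 3) in the E6.5 duct.

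Chromosome Z carried 8 of the lncRNAs. LOC101748608 (81282111 to 81295311, minus strand) had 13.2 and 13.6 CPM in E4.5-Ant, 4.9, 4.1 and 4.63 in E4.5-Post, 24.6, 35.1 and 37.7 in the E5.5 duct and 64.1, 63.8 and 64.9 in the E6.5 duct, so that no 2 tissues overlapped. For its length it was the most abundant of the 85, at 2.46 CPM per kilobase of gene in the lower duct against a median of 0.0993. LOC107052410 (66723961 to 66741684, minus strand), the lncRNA that the study also examined by in situ hybridization, had 7.49 and 7.14 CPM in E4.5-Ant, 6.96, 6.36 and 8.8 in E4.5-Post, 13.4, 15.4 and 20.2 in the E5.5 duct and 41.8, 39.9 and 43.5 in the E6.5 duct. The E4.5 tissues overlapped for this gene, and each duct lay apart from them and from the other duct. LOC112530552, farther along the same chromosome (80224759 to 80320457), had 1.5 to 3.1 CPM in E4.5 tissue, 6.09 to 11.6 in the E5.5 duct and 13.3 to 16.9 in the E6.5 duct.

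LOC101750361 on chromosome 12 (9627486 to 9722888) showed another E4.5 pattern, with 3.83 and 7.14 CPM in E4.5-Ant and 12, 10.5 and 13.2 in E4.5-Post, before 25.4, 33 and 40.6 in the E5.5 duct and 48.3, 38.1 and 37.7 in the E6.5 duct. LOC101749793 on chromosome 4 had 1.94 to 6.4 CPM in E4.5 tissue, 9.08 to 15.4 in the E5.5 duct and 18.9 to 20.6 in the E6.5 duct. LOC101747667 on chromosome 1 (64752901 to 64773470) had 4.25 and 3.22 CPM in E4.5-Ant, 0.954 to 1.88 in E4.5-Post, 9.79 to 14 in the E5.5 duct and 19.5 to 24.7 in the E6.5 duct. In contrast to these, LOC107054528 on chromosome 13 was higher in the earlier duct, with 14.7 to 15.9 CPM in the E5.5 duct and 9.36 to 12.2 in the E6.5 duct against 1.25 to 3.39 in E4.5 tissue. LOC100859665, beside the potassium channel gene KCND2, and LOC112533279, the nearest gene to which is TSHZ3 for a zinc finger transcription factor, had overlapping duct libraries, at 8.17 to 10 and 6.76 to 9.22 CPM.

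**Figure D2:**
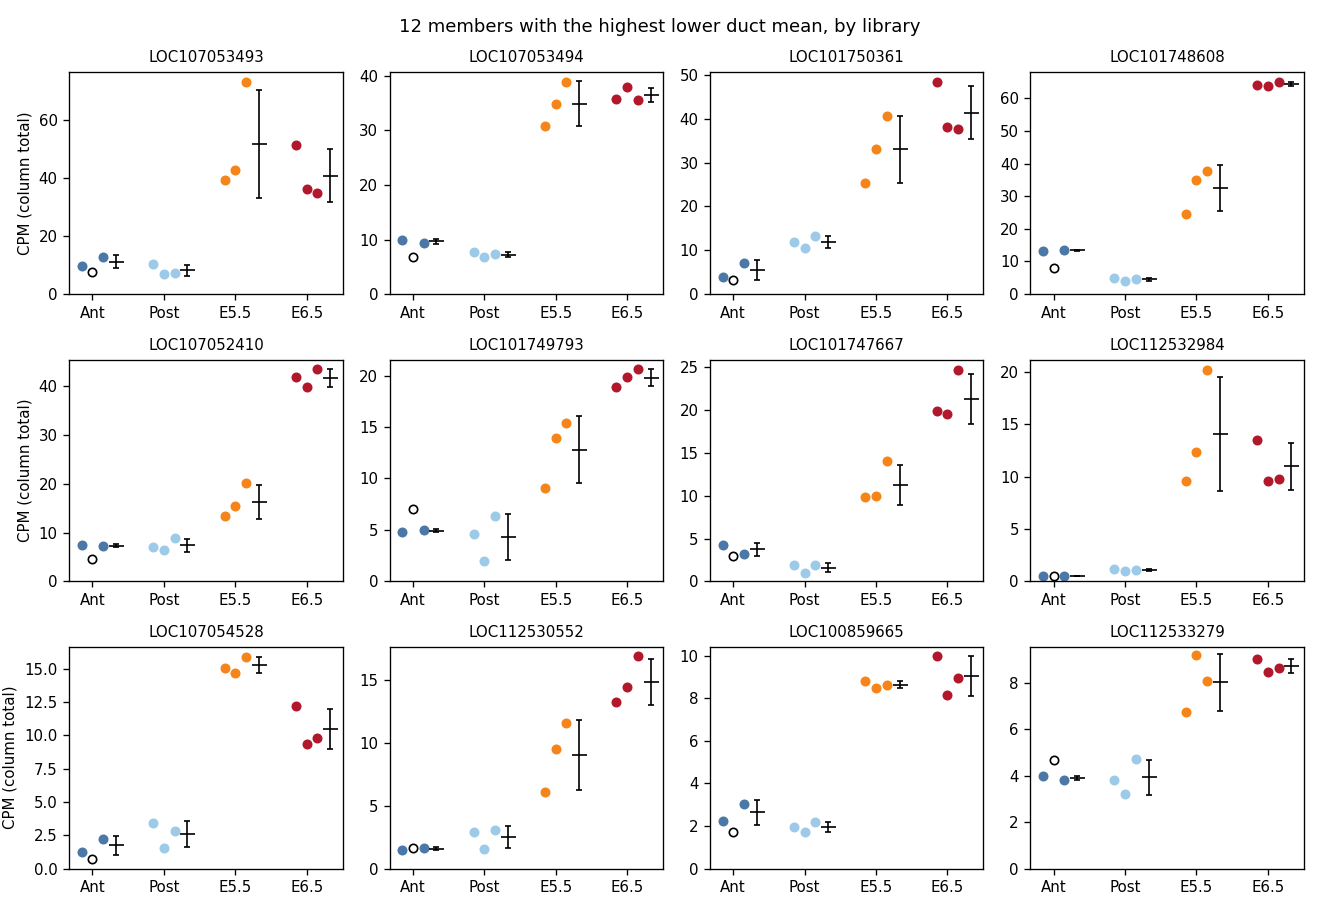
CPM by column total in each library of the 12 lncRNAs with the highest lower duct mean. Filled points are libraries, black bars are means ± SD over 2 E4.5-Ant libraries or 3 libraries of the other tissues, and the open point is the left-out E4.5-Ant library, whose total includes its rRNA counts. LOC101748608 has 24.6 to 37.7 CPM at E5.5 and 63.8 to 64.9 at E6.5, whereas LOC107054528 falls from 14.7 to 15.9 down to 9.36 to 12.2.

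The 10 largest ratios belonged to genes whose higher E4.5 mean ran from 0.119 to 1.07 CPM. LOC107055410, on a sequence with no chromosome name here, had 0.0348 and 0.165 CPM in E4.5-Ant, 0.331, 0.141 and 0.0348 in E4.5-Post, 1.56, 1.42 and 2.69 in the E5.5 duct and 2.63, 2.92 and 2.28 in the E6.5 duct, a ratio of 11.2. It lies 4839 bases upstream of HOXC11 on the same strand. LOC112532984 on chromosome 1 (10664755 to 10695820), with a ratio of 10.2, had 0.488 to 1.18 CPM in E4.5 tissue, 9.59, 12.4 and 20.2 in the E5.5 duct and 13.5, 9.54 and 9.77 in the E6.5 duct. It was thus the only one of these 2 that also ranked among the 12 with the most counts. LOC112530628 on Z (ratio 6.39), LOC107052021 on chromosome 3 (6.33), LOC101747717 on chromosome 2 (5.92), LOC107052435 on Z (5.82), LOC107052544 on chromosome 2 (5.77), LOC107053732 on chromosome 6 (5.63), LOC112531784 on chromosome 2 (5.23) and LOC112529963 on chromosome 1 (5.01) followed, with lower duct means between 0.624 and 5.4 CPM.

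Library by library, every duct library exceeded every E4.5 library in 80 of the 85, a count fixed largely by the rule and shown beside the 12.2% of all 16603 tested genes with that pattern. The exceptions were LOC112533263, LOC107054444, LOC101751111, LOC101749271 and LOC101750880. In LOC112533263 on chromosome 11, nearest to the forkhead gene FOXF1, a single library carried the E5.5 mean, with 0.223, 0.198 and 3.05 CPM. Most of the E5.5 mean of LOC101750880 likewise came from 1 library, with 0.606, 1.02 and 4.2 CPM against up to 0.784 in E4.5 tissue. The E5.5 libraries were also the most scattered over the whole set, at 331 CPM in library 1 and 485 in library 3. By means, 63 lncRNAs were highest in the E6.5 duct and 22 in the E5.5 duct, and in 53 E4.5-Ant exceeded E4.5-Post. In 41 the means ran in the order E4.5-Post, E4.5-Ant, E5.5 duct, E6.5 duct.

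The E4.5-Ant library that the rule left out holds values that the rule did not use. The duct and E4.5 libraries set beside it are those that chose the lncRNAs, so the counts below are partly fixed by the rule. To set aside its rRNA, its CPM were taken over non-rRNA counts in all libraries. There it lay below every duct library in 73 of the 85 (85.9%, against 38.9% of all tested genes), and its summed level of 155 CPM stood above the 108 and 124 of the other E4.5-Ant libraries and below the 332 to 487 of E5.5 duct. It was above both other E4.5-Ant libraries in 40 lncRNAs (47.1%, against 31.3%) and below both in 21 (24.7%, against 54.9%), so it stood apart from its replicates over all genes too. It exceeded every E4.5-Post library in 44 (51.8%, against 36.8%). Among the 12 lncRNAs not below every duct library were LOC107054308 on chromosome 11, nearest to the transcription factor gene MAF, with 10.2 CPM there and 3.58 in the lowest duct library, and LOC112530628, with 6.9 CPM there and 4.32 in the lowest duct library.

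Whether the lncRNAs still changed as the duct elongated was asked by comparing E6.5 with E5.5 duct, which the rule treats alike. Of the 85, all of which passed the filter on low counts, 20 were higher at E6.5 and 0 were lower (edgeR quasi-likelihood test, FDR of at most 0.05 and fold change of at least 1.5), against 4.11% of all tested genes higher and 3.45% lower. These 20 were 23.5% of the set. Of the other 2066 tested lncRNAs 54 (2.61%) were higher and 128 lower. The median log2FC was 0.30 for the 85, 0.005 over all tested genes and -0.097 for the other lncRNAs. DESeq2 and voom with limma called 14 and 22 of the 85, and 29 had an unadjusted edgeR p under 0.05. All E6.5 libraries exceeded all E5.5 libraries in 25 of the 85 (29.4%, against 19.1% of all tested genes), and the reverse held in 3.

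LOC112529963 (chromosome 1, 132248239 to 132302518) showed the largest change. It had 2.84, 3.74 and 3.16 CPM in the E5.5 duct and 10.4, 9.73 and 10.6 in the E6.5 duct (log2FC 1.66, SE 0.153, edgeR FDR 9.61e-06), after 0.283 to 0.701 in E4.5 tissue. LOC107052410 rose by a log2FC of 1.36 (SE 0.128, edgeR FDR 1.13e-05) and LOC107052544 by 1.23 (SE 0.365, edgeR FDR 0.0221). None of these 3 had overlap between the ducts. LOC107052410 spread from 13.4 to 20.2 CPM in the E5.5 duct, and LOC107052544 was scarce, at 0.606 to 0.861 CPM in the E5.5 duct and 1.22 to 2.3 in the E6.5 duct. LOC107054444 and LOC112531784 rose by 1.13 each, the first lying 177 bases from CACNA2D3, which encodes an auxiliary calcium channel subunit, and LOC107052738 by 1.11. LOC101748608 rose by 0.99 (SE 0.117, edgeR FDR 6.56e-05), LOC107052642, beside the guidance gene SEMA5A, by 0.98 and LOC101747667 by 0.93. LOC107054528, the clearest of the 3 with all E6.5 libraries below E5.5, had a log2FC of -0.54 (edgeR FDR 0.042). It passed the FDR limit but not the fold limit, and so was not called.

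How many of the lncRNAs were called depended on single libraries. Without E5.5 library 1, the lowest of the set at that stage, 10 were called, without E6.5 library 3 there were 13, and with the left-out E4.5-Ant library added to the model 11. Leaving out any library in turn gave 0 to 2 called lower. The 7 that kept their call in every fit that tested them were LOC112529963, LOC107052410, LOC101748608, LOC107052642, LOC101747667, LOC112532778 and LOC112531784. Markers also differed between the ducts, with 4 of 6 red blood cell genes higher and 1 lower at E6.5. Lower there were 5 of 5 skeletal muscle, 4 of 7 nephron and 3 of 5 sclerotome genes, with 0 higher. Of the 8 Müllerian markers, 2 were higher and 0 lower. The part of these markers in the result was not tested.

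A second comparison asked which of the lncRNAs already differed along the mesonephros at E4.5, where only the anterior part holds the nascent duct. In E4.5-Ant 10 of the 85 were higher and 3 lower than in E4.5-Post (edgeR), 11.8% and 3.53%, against 7.7% and 3.05% of all tested genes and 9.34% and 3% of the other lncRNAs. These shares are near the background. The E4.5-Ant libraries lay wholly above E4.5-Post in 26 (30.6%, against 30% of all tested genes). The median log2FC was 0.16 for the 85 and 0.099 for the other lncRNAs. Markers differed along with these calls, with 4 of 5 sclerotome genes higher in E4.5-Ant, and 3 of 5 Wolffian and 5 of 8 Müllerian markers lower (1 Wolffian and 0 Müllerian higher), and their part in the result was not tested.

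LOC101748608 was the clearest of those higher in E4.5-Ant (log2FC 1.53, SE 0.166, edgeR FDR 1.01e-05). LOC107051569 on chromosome 1 (153684706 to 153686544), nearest to the receptor tyrosine kinase antagonist SPRY2, had 0.313 and 0.413 CPM in E4.5-Ant but 2 counts in all 3 E4.5-Post libraries together against 19 in both E4.5-Ant libraries, a ratio of 15.1 (95% exact interval 3.65 to 134, counting error only; edgeR FDR 0.00321). LOC101751111 on chromosome 3, nearest to SIX2, a transcription factor gene of nephron progenitors, had 0.975 and 0.99 CPM in E4.5-Ant and 0.104 to 0.258 in E4.5-Post (log2FC 2.50, SE 0.841, edgeR FDR 0.0378). SIX2 itself differed the same way, with a log2FC of 1.90, at means of 0.737 and 0.188 CPM. LOC101749311, nearest to the ephrin receptor gene EPHA3, followed with 1.5, LOC101747667 with 1.23 and LOC107054407 with 1.02. Of the 10 lncRNAs higher in E4.5-Ant, 5 were also higher at E6.5 than at E5.5 (LOC107051569, LOC101748608, LOC101747667, LOC107052642 and LOC112532778), while 57 of the 85 were called in neither comparison.

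The 3 lower in E4.5-Ant were LOC112531564 on chromosome 1 (log2FC -1.82, SE 0.5, edgeR FDR 0.0140), LOC107054516 on chromosome 13 (-1.23, SE 0.363, edgeR FDR 0.0204) and LOC101750361 (-1.17, SE 0.243, edgeR FDR 0.00250). LOC112531564 had 0.0697 and 0.165 CPM in E4.5-Ant and 0.405, 0.318 and 0.487 in E4.5-Post. LOC107054516 had 0.209 and 0.289 CPM in E4.5-Ant and 0.626, 0.53 and 0.556 in E4.5-Post. For these 3, the groups did not overlap, and the kidney tissue with no duct held more than the tissue with the nascent duct. With 2 libraries on 1 side, the count of 13 called fell to 6 without E4.5-Ant library 1, to 5 without library 3, where the lone E4.5-Ant library is assumed to vary like the other tissues, and to 8 without E4.5-Post library 3. LOC101748608 kept its call in every fit and LOC107051569 in every fit that tested it.

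**Figure D3:**
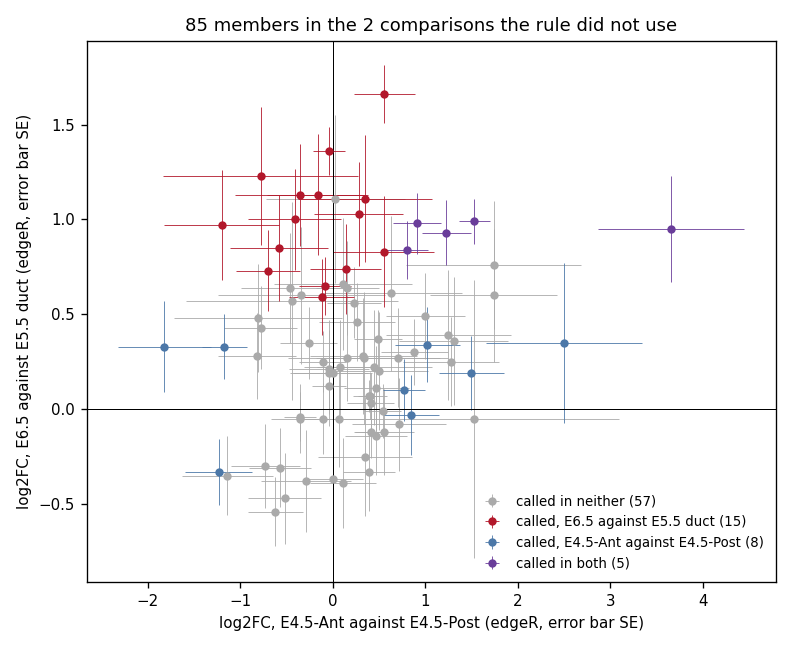
Fitted log2FC ± SE of the 85 lncRNAs in E4.5-Ant against E4.5-Post (horizontal) and in E6.5 against E5.5 duct (vertical). None of the points called between the ducts (red and violet, 20) lies below 0, points called between E4.5 tissues (blue and violet, 13) lie on both sides, and 57 grey points were called in neither. The fitted 3.66 of LOC107051569, farthest right, rests on 2 counts in E4.5-Post.

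The lncRNAs were spread over the genome, with 15 on chromosome 1, 10 each on chromosomes 2 and 3, and 8 each on Z and 12. Chromosome 12 held 9.41% of them and 2.2% of the other 1411 lncRNAs at the duct minimum, and Z held 9.41% and 5.03%. The pools were not separated by sex. W-linked genes summed to 1480 to 1940 CPM in E4.5-Ant, 1180 to 1710 in E4.5-Post, 1420 to 1900 in the E5.5 duct and 984 to 1770 in the E6.5 duct. Of 40 tested, 4 were lower and 0 higher at E6.5 than at E5.5. The part of the sex mix in the levels of Z genes was not tested. In 10 runs of members less than 100000 bases apart lay 21 of the 85, mostly as pairs. Among those runs were LOC107053493, LOC107053494 and LOC107053495 near KATNBL1, LOC101747667 with LOC101747754 near PDE3A, LOC107054411 with LOC107054409 near CHL1, and LOC101750987 with LOC101751030 near EDEM1. Others were LOC107054516 with LOC107054528 near NMUR2, LOC107053133 with LOC112532122 at MLIP, LOC107051776 with LOC107051775 at FBXW7, LOC112532813 with LOC112532778 at DPP10, and LOC107053936 with LOC101747379 at ZNF648. The last paired LOC107051944, nearest to ANKRD55, with LOC112530628, nearest to MAP3K1. LncRNAs of a run on opposite strands are annotated as separate genes. The share of reads assigned to the wrong strand was not tested there, including where LOC107053494 lies inside LOC107053493. Whether those on the same strand are parts of 1 transcript was not tested. Each was still counted separately in the shares of the 85, so those shares do not count independent cases.

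By position they lay farther from protein coding genes than other lncRNAs did. Of the 85, 41 (48.2%) had no protein coding gene within 5000 bases, against 24.8% of the other 1411, and 23 (27.1%) overlapped one on the opposite strand, against 49.5%. Another 13 (15.3%, against 14.5%) were divergent, that is, on the opposite strand with adjacent starts within 5000 bases and read away from each other. The median gap to the nearest protein coding gene was 4817 bases, against 4, and the median gene length 20211 bases, against 11807. Counts were taken over the whole gene, introns included.

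The protein coding neighbours, which the rule did not use, were tested for a difference between the mean of both ducts and the mean of both E4.5 tissues. The 85 lncRNAs had 70 distinct nearest protein coding genes that were tested, and 35 of these (50%) were higher in the ducts and 0 lower (edgeR), against 10.8% of all tested protein coding genes higher and 5.86% lower. Among the 1616 nearest genes of other tested lncRNAs, 11.6% were higher and 6.37% lower. The median log2FC was 0.60 for the 70, -0.012 for the neighbours of other lncRNAs and -0.005 for all tested protein coding genes. Leaving out any library in turn gave 32 to 35 higher and 0 lower. Such a call does not mean that each duct exceeded each E4.5 tissue, which failed by means for 3 of the 35, CACNA2D1, SIX2 and GABRA4, named after their values were seen. No set test was run on these shares. The contrast shares its libraries with the rule that chose the lncRNAs, so each pair is a description of the same 11 libraries.

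The share of raised neighbours was highest for divergent pairs, at 8 of 12 (66.7%, against 7.35% for divergent pairs of other lncRNAs). For antisense pairs it was 9 of 22 (40.9%, against 11.8%) and for pairs more than 5000 bases apart 18 of 39 (46.2%, against 15.9%). These counts are of pairs, and 1 neighbour can stand in more than 1. The share fell with rank of distance, from 50% for the nearest gene to 25% for the second nearest, 15.2% for the third and 15.9% for the fourth, whereas for other lncRNAs it lay between 9.69% and 11.6% at every rank. The ranks after the nearest were looked at after the data had been seen.

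**Figure D4:**
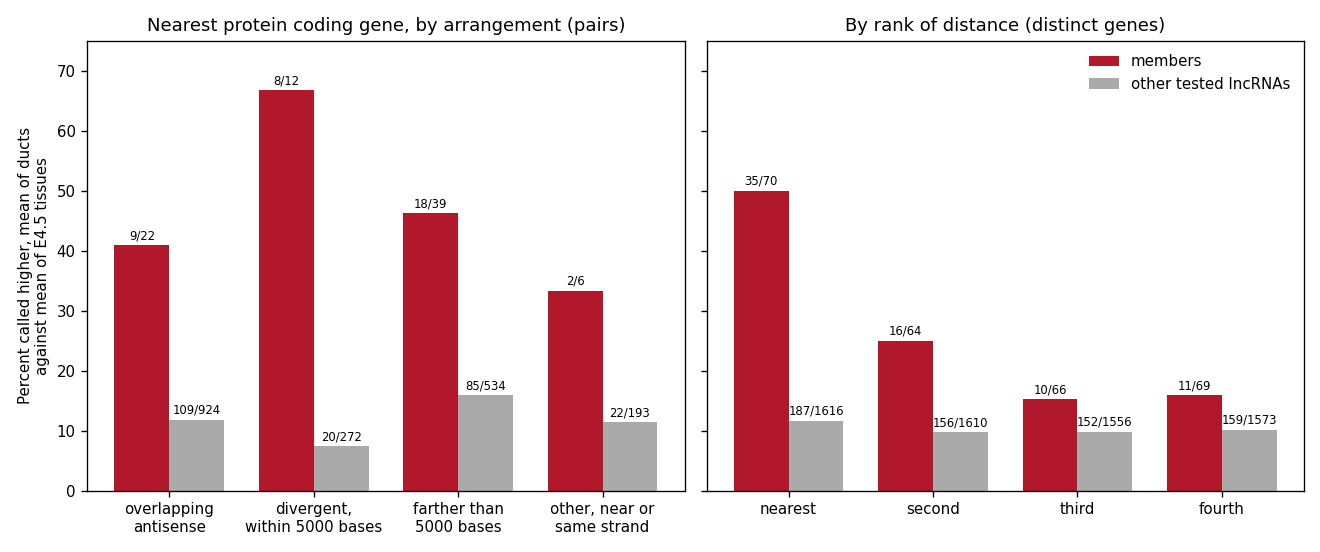
Percent of protein coding neighbours called higher in the contrast of the mean of both ducts with the mean of both E4.5 tissues, with the counts above each bar, for the 85 lncRNAs (red) and other tested lncRNAs (grey). On the left are pairs by arrangement, with 8 of 12 divergent pairs raised against 20 of 272, and on the right distinct genes by rank of distance, with 35 of 70 nearest genes and 11 of 69 genes at the fourth rank raised.

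Among neighbours that overlapped a lncRNA or lay within 5000 bases, the largest changes were of 2 HOX genes, which encode homeodomain factors that pattern the body axis and the reproductive tract. HOXC11, near LOC107055410, had means of 0.0619 CPM in E4.5-Ant, 0.0965 in E4.5-Post, 0.842 in the E5.5 duct and 1.06 in the E6.5 duct (log2FC 3.62, SE 0.511, edgeR FDR 3.04e-05). HOXA11 had means of 1.3, 0.872, 8.61 and 17.5 CPM (log2FC 3.59, SE 0.397, edgeR FDR 2.89e-06). LOC107052544, on the opposite strand of HOXA11 (chromosome 2, 32666056 to 32672393), had means of 0.0825, 0.129, 0.742 and 1.72 CPM. LncRNA and HOX gene thus stepped up between the same tissues in both pairs. In the 2 E4.5-Ant libraries each HOX gene had an SD above its mean (SD 1.84 CPM for HOXA11 and 0.0875 for HOXC11). The log2FC of HOXC11 rests on E4.5 levels near 0, with an SD of 0.078 CPM in E4.5-Post.

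Signalling genes formed other pairs. HGF, which encodes the ligand of the MET receptor, had means of 20.4 CPM ± 0.709 (SD, n = 2), 19.3 ± 1.39 (n = 3), 68.7 ± 2.3 (n = 3) and 84.3 ± 6.44 (n = 3) in the 4 tissues in order (log2FC 1.96, SE 0.0533, edgeR FDR 7.85e-12). Its antisense lncRNA LOC107057089 had 0.836 and 1.11 CPM in E4.5-Ant, 0.626 to 0.848 in E4.5-Post, 2.48 to 2.74 in the E5.5 duct and 2.44 to 2.96 in the E6.5 duct. FSHR, the receptor of follicle stimulating hormone, rose with a log2FC of 1.93 (SE 0.142, edgeR FDR 4.52e-08) from means of 1.4 and 1.62 CPM to 3.23 and 9.84. LOC107052021, antisense to FSHR, had 0.495 to 0.766 CPM across the E4.5 libraries, 3.38, 3.31 and 6.46 in the E5.5 duct and 5.98, 6.4 and 5.51 in the E6.5 duct. Between the ducts, the mean of the lncRNA went from 4.38 to 5.96 CPM and that of FSHR from 3.23 to 9.84. HTR2A, a serotonin receptor gene 3588 bases from the divergent LOC112531564, rose with a log2FC of 1.64 (edgeR FDR 1.28e-08), and ADGRB3, an adhesion receptor gene 66 bases from the divergent LOC101751384, with 2.03 (edgeR FDR 1.33e-09).

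Of the divergent pairs, EGFLAM, which encodes an extracellular matrix protein, and LOC107051932 start 293 bases apart on Z. EGFLAM had means of 262, 205, 503 and 708 CPM (log2FC 1.38, edgeR FDR 7.16e-11) and LOC107051932 of 2.81, 1.89, 6.8 and 6.7. SNCAIP, whose protein binds alpha-synuclein, lies 258 bases from LOC101748608 and had means of 116, 64.1, 156 and 207 CPM (log2FC 1.09, edgeR FDR 1.95e-08), which puts the 4 tissues in the same order as the lncRNA. SEMA5A, 366 bases from LOC107052642, rose with 1.23 (edgeR FDR 8.69e-09) and CACNA2D3 with 1.10 (edgeR FDR 4.42e-07). KCND2 rose with 1.56 (edgeR FDR 2.23e-07) and SLC24A2, a cation exchanger gene 101 bases from LOC107052289, with 1.61 (edgeR FDR 2.44e-06). CACNA2D1, another gene of an auxiliary calcium channel subunit, is antisense to LOC112532984. It was called in the same contrast with 0.60 (edgeR FDR 2.25e-06), but its means of 51.7, 34.8, 80.7 and 49.1 CPM put the E6.5 duct below E4.5-Ant, and it was lower at E6.5 than at E5.5 (log2FC -0.72, edgeR FDR 6.21e-05). The potassium channel gene KCNQ1, antisense to LOC107053397, rose with 1.43 (edgeR FDR 4.99e-08), and the collagen gene COL1A1, which converges on LOC112530352 with a gap of 2 bases, with 1.57 (edgeR FDR 1.01e-07).

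**Figure D5:**
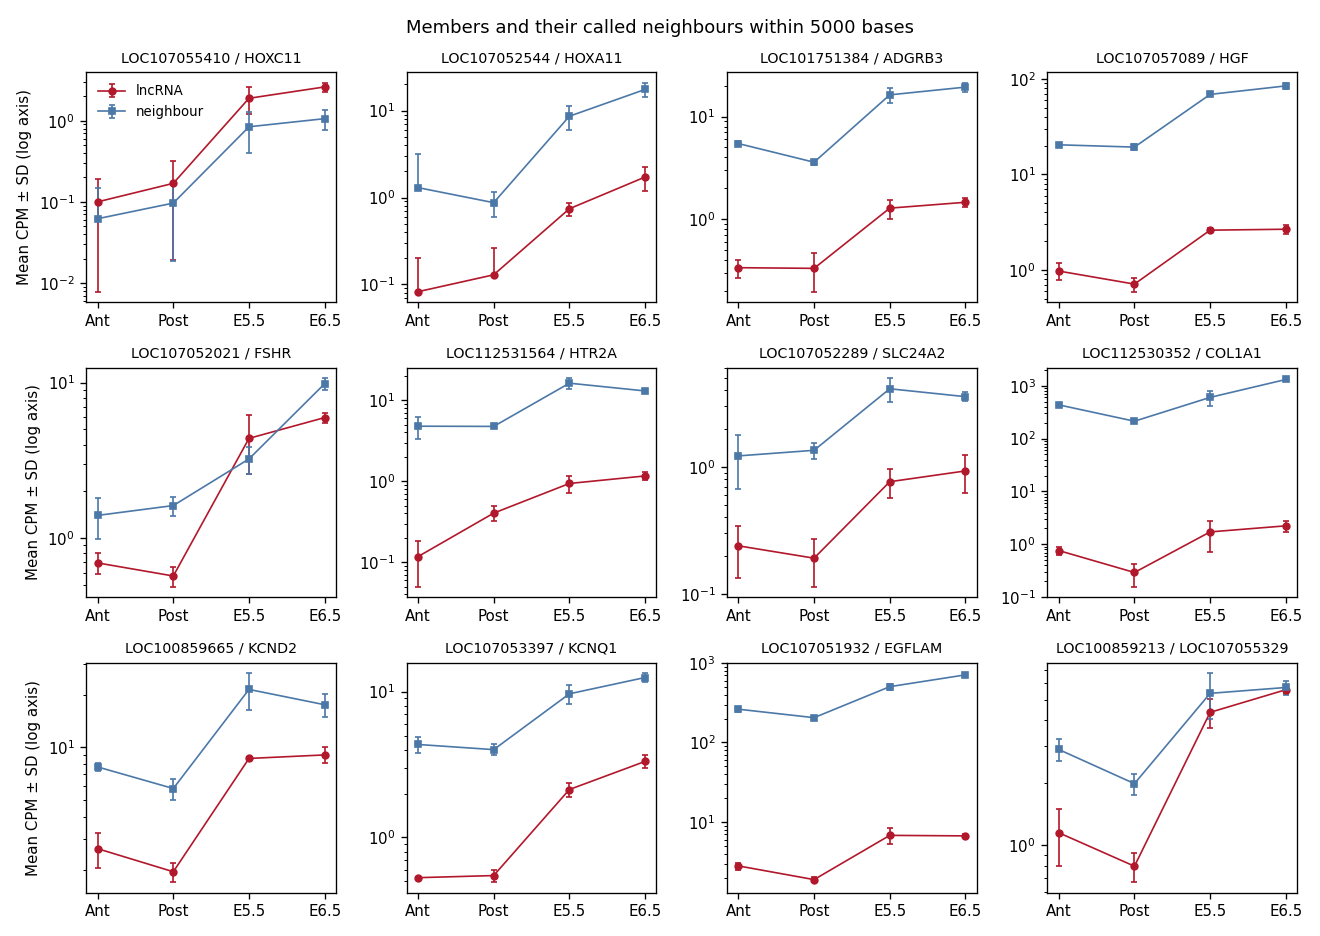
Mean CPM ± SD (log axis, n = 2 in E4.5-Ant and 3 elsewhere) of the 12 lncRNAs (red circles) whose called neighbour (blue squares) overlapped or lay within 5000 bases and changed most. A lower error bar is not drawn where it would reach 0. For HGF the means are 20.4 and 19.3 in E4.5 tissue and 68.7 and 84.3 in the ducts, and in every panel both genes have higher means in each duct than in E4.5-Post.

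More distant neighbours changed too. The uncharacterised C2H8ORF34 lies 112 kilobases from LOC101747717 and rose with a log2FC of 3.18 (edgeR FDR 1.44e-10), from means of 13.4 and 7.25 CPM to 57.2 and 135, while the lncRNA reached means of 1.0 and 1.19 CPM. GABRG3, a GABA receptor subunit gene 94.7 kilobases from LOC112529963, rose with 2.39 (edgeR FDR 7.9e-06), although it stayed at or below a mean of 1.33 CPM, and it was higher at E6.5 than at E5.5, as the lncRNA was. MAP3K1, a kinase gene upstream in MAP kinase signalling and 64.4 kilobases from LOC112530628, rose with 1.57 (edgeR FDR 6.28e-11) to means of 352 and 628 CPM. TSHZ3 (1.15), CHL1, for a cell adhesion protein (1.12), and ZNF608 (0.98) also rose. Not all loci followed this pattern: KATNBL1, PDE3A, EPHA3 and AFAP1L2 were not called. EPHA3 had a log2FC of 0.25 (edgeR FDR 0.129). PDE3A (0.46, edgeR FDR 0.000187), KATNBL1 (0.14, edgeR FDR 0.0142) and AFAP1L2 (-0.41, edgeR FDR 5e-06) passed the FDR limit but not the fold limit. AFAP1L2 had means of 63.4 and 45.4 CPM in E4.5 tissue and 36.1 and 43.7 in the ducts, while its antisense LOC107053732 went from 0.277 and 0.285 to 1.6 and 1.85.

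The neighbours were also read in the comparisons that the rule did not use. Of the 10 lncRNAs higher in E4.5-Ant, 6 had a nearest protein coding gene that was also higher there and 0 had one that was lower. These genes were SNCAIP, SIX2, CHL1, DPP10, and the more distant PDE3A and EPHA3, 110 and 149 kilobases away. Of 68 lncRNAs not called with a tested neighbour, 9 had one that was higher and 1 had one that was lower. Among all tested genes, 7.7% were higher and 3.05% lower. Between the ducts, 3 of 18 lncRNAs higher at E6.5 with a tested neighbour had one that was also higher (SEMA5A, GABRG3 and RRS1). In that comparison 0 of the 18 had one that was lower. Of 61 not called, 4 had one that was higher and 3 had one that was lower. Among all tested genes, 4.11% were higher at E6.5 and 3.45% lower. The difference between these shares was not tested.

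Reads of overlapping genes limit some of these values. The 22 antisense lncRNAs with a tested partner had from 0.329% to 562% of the counts of the opposite gene at E6.5, with a median of 7.21%, and only 1 lay under 1%. In 20 of the 22 that share was higher in the E6.5 duct than in E4.5-Post, as it must be where a chosen lncRNA outpaces its partner. The exceptions were 2 of the pairs described above. LOC107057089 had 3.69% of the HGF counts in E4.5-Post and 3.16% in the E6.5 duct. LOC107052544 had 15.1% and 9.91% of those of HOXA11. The share of reads assigned to the wrong strand was not tested, in these pairs or in the others. On its own strand, 5 of the 85 overlapped another annotated gene. For LOC107052410 that gene is TXN (thioredoxin), 66724107 to 66729464 and wholly inside it, which makes up 30.2% of its length. TXN had 0 counts in all 11 libraries. The other overlapped genes, 2 lncRNAs, a snoRNA and a miRNA, also had 0. Such reads fit both genes and were not assigned by the counting, so counts of LOC107052410 come from the rest of its span, and the transcript they belong to cannot be told apart from other unannotated RNA of that strand.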

How the data were processed

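The authors prepared stranded poly(A) mRNA libraries, aligned reads with STAR and counted them with featureCounts 1.6.2 over whole genes of GRCg6a by strand. The deposited values were whole-number counts without normalization. Reads that fit 2 genes were not assigned. Sequences were given chromosome names through gene symbols shared with a RefSeq table of GRCg7b (18401 symbols matched once), and no coordinate of that build was used.

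CPM were computed from column totals. Genes were tested with edgeR 4.0.16 (quasi-likelihood, TMM, filterByExpr) in 1 model of 4 tissues and 11 libraries, with Benjamini-Hochberg adjustment over 16603 genes, and called at an FDR of 0.05 and a fold change of at least 1.5 either way. DESeq2 1.42.0 and voom with limma 3.58.1 were alternatives. The model was also run on simulated counts with 1 fixed spread, where only genes averaging at least 10 counts were changed. That run cannot show how it handles changes in scarcer genes or uneven replicates. Table columns name a tissue and a library number, not a sample. Neighbours were nearest protein coding genes by gap between gene bodies. The text names the lncRNAs with the most counts (12), the largest ratios (10), the largest called differences (6 per direction) and the largest called neighbours within 5000 bases (12), those at both limits, and LOC107052410. Others named were chosen after their values were seen. The lncRNAs and lists were chosen with earlier results of these data known. No sequence is printed because no GRCg6a sequence was used here.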

Additional observations from a re-analysis of the deposited data

Results flagged for a closer look

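In the E4.5-Ant library that entered no mean or test, 44 of the 85 lncRNAs stood above every E4.5-Post library in CPM over non-rRNA counts, a level in data that the comparisons did not use. Over all tested genes 36.8% did so, and the E4.5-Post libraries were among those that chose the lncRNAs. The library stood far from its replicates, with a chi-square per degree of freedom of 71.3 and 81.8 against them and 4.49 between them. Among the libraries kept, E5.5 duct library 2 stood farthest from its replicates, at 30.9 and 37.8 against them and 9.62 between them. It had 1.949% of counts on rRNA genes and entered the rule, the E5.5 means and the tests. Whether it is the sample with the posterior kidney entry cannot be told, because the columns name no sample.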

How the results depend on the processing

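The set of 85 became 270 with no abundance minimum and 37 at a 3-fold limit, and 77 to 94 on leaving out a library, with 55 kept each time. Between the ducts, 20 calls became 8 where every library had to hold 10 counts (low genes are then not tested), 11 with all 12 libraries, and 10 to 24 without a library. Between E4.5 tissues, 13 calls became 7 with 10 counts in every library and 5 to 14 without a library. The 35 called neighbours, all raised, became 60 called in either direction with no fold limit, and ran from 26 to 60 over the alternatives. Those 60 include lower genes, such as PTGFRN (log2FC -0.53, edgeR FDR 4.82e-06) and CENPW (-0.45, edgeR FDR 5.16e-06). The 0 lower neighbours reported above therefore hold under the fold limit, and no background share without that limit was computed. No called lncRNA changed direction. The causes of the other shifts were not tested. At E4.5, equal library numbers had correlations of 0.137, -0.144 and -0.179, which over 3 numbers cannot show whether they are paired. The tests treated the libraries as unpaired, although both tissues came from the same embryos. The fit with the number as a block called 9 lncRNAs. Depth also limits the values: duct counts of a lncRNA were as low as 6 in a library, and 3 lncRNAs had at most 3 counts in every library of an E4.5 tissue.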
